A study of Homo sapiens with 40 samples.

Results

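The collagen and laminin genes were chosen as all autosomal protein-coding genes of the GENCODE 44 annotation whose symbols name a collagen chain (COL, a number, A and a number) or a laminin chain (LAMA, LAMB or LAMC and a number). They were 54 of 19103 such genes, 42 coding for collagen chains and 12 for laminin chains. All regions of enrichment, or peaks, within 2 kb of a start site of their protein-coding transcripts (called promoter peaks here) or elsewhere inside the genes (body peaks) were taken: 85 of 51489 H3K27ac peaks and 163 of 51457 CTCF peaks. The rule uses gene names and positions and no measured value, but it was set with earlier results of these data known.

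The data came from chromatin immunoprecipitation and sequencing (ChIP-seq) of EndoC-βH3, a single human pancreatic beta-cell line whose immortalizing transgenes can be cut out by a recombinase that 4-hydroxytamoxifen (4-OHT) switches on. Senescent cells had been treated with 4-OHT for 3 weeks, and the non-senescent control cells carried the same excisable transgenes without that treatment. Antibodies against H3K27ac (acetylated histone H3, which marks regulatory elements in use) and against CTCF (a zinc-finger protein at the anchors of loops) each gave 3 libraries of control cells and 3 of senescent cells. Only the authors' comparison over these libraries was used here, so each peak has a mean count over the 6 libraries, a log2 fold change (senescent over non-senescent) with its standard error (SE), and an adjusted p, but no value per library. The labels do not say that the replicates were separate cultures, so the p-values measure the spread between these libraries, which may be technical.

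Collagens are triple-helical proteins of the extracellular matrix. Fibrillar chains form the cables of connective tissue, type IV chains form the net of the basement membrane, and other chains decorate fibrils, span the plasma membrane or carry fragments such as endostatin. Laminins are trimers of an alpha, a beta and a gamma chain that give the basement membrane its cell-binding layer. In pancreatic islets the basement membrane is attributed largely to the vessels, and beta cells attach to its laminins and type IV collagens through integrins.

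In senescent cells, H3K27ac was lower at 28 of the 85 collagen and laminin peaks and higher at 8. A call needed a DESeq2 adjusted p (Benjamini-Hochberg) under 0.05 together with at least a 1.5-fold difference. By this rule 13.1% of all H3K27ac peaks were lost and 9.47% were gained (22.6% in either direction), against 32.9% and 9.41% of the member peaks. The median log2 fold change of the member peaks was -0.32, and that of all peaks was 0.01. The losses lay mostly inside genes: 25 of the 69 body peaks were lost and 7 were gained, where 11% and 11.4% of the body peaks of all autosomal genes were (22.4% together). Among the 16 promoter peaks 3 were lost and 1 was gained, where 9.85% and 4.58% of promoter peaks of all genes were (14.4% together). When each change was tested against the 1.5-fold limit itself (Wald test, Benjamini-Hochberg), 2 member peaks remained lost and 3 gained, against 2.76% and 1.89% of all peaks, so the larger share of losses did not hold under this stricter test. The plot of shares of gained and lost peaks sets these values side by side.

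**Figure D1:**
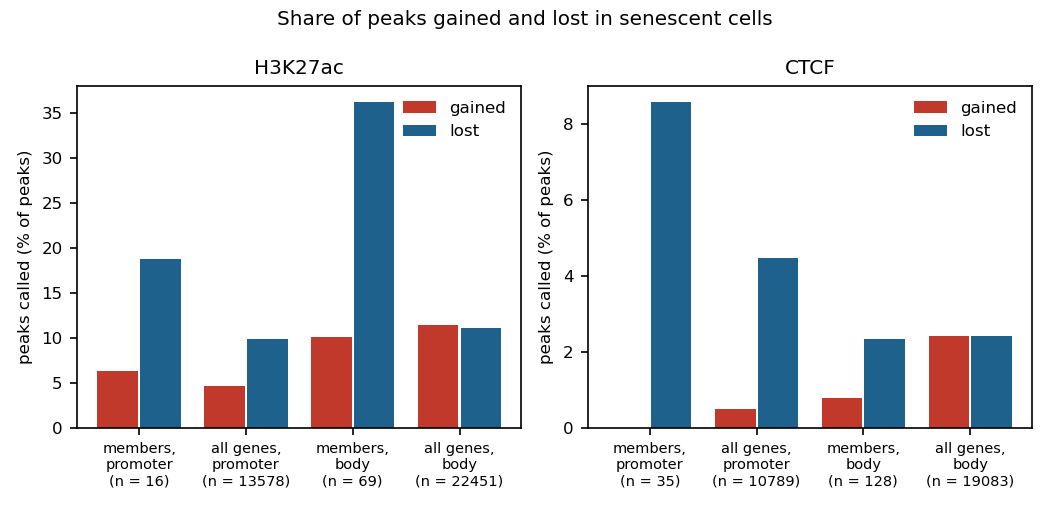
Bars give the percentage of H3K27ac peaks (left) and CTCF peaks (right) called gained (red) or lost (blue) in senescent cells, for the collagen and laminin genes (members) and for all autosomal protein-coding genes, with the number of peaks in parentheses. For H3K27ac, 36.2% of the member body peaks were lost, and 11% of all body peaks.

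Weakly covered peaks are called less often, so the shares were also taken at a mean count of at least 50. There, 22 of 50 member body peaks were lost and 6 were gained (44% and 12%), against 14.6% and 15.2% of 12825 body peaks of all genes. The median log2 fold changes were -0.42 and 0.03. Among all member peaks, at promoters and in bodies and at any count, collagen genes had 23 lost of 60 and laminin genes 5 of 25.

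Sequences of 4 places are shown: both starts of COL18A1, where the gained promoter peak and an uncalled one can be compared, the shared start region of COL4A1 and COL4A2, the latter of which had the most lost peaks of any member, and the peak with the largest gain. The COL18A1 and LAMA2 sequences were chosen after their values had been seen. They were read from RefSeq promoter windows (250 bases before to 50 after a start, GRCh38.p14) or from the hg38 genome, and capitals mark matches to 4 motifs searched on both strands. The motifs were a CTCF core (CC, AG and GGC with 3 and 2 free bases between them), an AP-1 site (TGANTCA), a GC box (GGGCGG, or CCGCCC on the other strand) and a TATA box (TATAAA). The first is the upstream promoter of COL18A1 (chr21:45404915-45405214, plus strand), inside the single promoter peak that gained H3K27ac. Its GC content is 86.7% and it holds 9 GC boxes.
COL18A1 upstream promoter: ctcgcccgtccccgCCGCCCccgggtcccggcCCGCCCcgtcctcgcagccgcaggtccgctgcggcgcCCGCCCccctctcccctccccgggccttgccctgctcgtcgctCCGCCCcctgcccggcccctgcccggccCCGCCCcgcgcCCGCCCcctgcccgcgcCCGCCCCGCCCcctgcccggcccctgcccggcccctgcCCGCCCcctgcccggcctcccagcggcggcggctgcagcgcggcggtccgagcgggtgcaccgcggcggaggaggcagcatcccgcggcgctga
The second is the later COL18A1 start (chr21:45455272-45455571, plus strand), at the edge of a broad peak that was not called. It holds a TATA box and a GC box.
COL18A1 downstream promoter: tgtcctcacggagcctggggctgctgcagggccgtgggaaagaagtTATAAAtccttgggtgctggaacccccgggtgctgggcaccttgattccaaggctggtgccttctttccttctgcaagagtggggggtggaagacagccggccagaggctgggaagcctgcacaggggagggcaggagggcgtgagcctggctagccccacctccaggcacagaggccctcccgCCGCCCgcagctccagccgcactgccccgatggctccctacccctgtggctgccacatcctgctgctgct
The third is the start region that COL4A2 shares with COL4A1, read toward COL4A2 (chr13:110307034-110307333, plus strand). The main start sites of the divergent pair lie 127 bp apart, and no H3K27ac peak overlapped this window.
COL4A2 promoter: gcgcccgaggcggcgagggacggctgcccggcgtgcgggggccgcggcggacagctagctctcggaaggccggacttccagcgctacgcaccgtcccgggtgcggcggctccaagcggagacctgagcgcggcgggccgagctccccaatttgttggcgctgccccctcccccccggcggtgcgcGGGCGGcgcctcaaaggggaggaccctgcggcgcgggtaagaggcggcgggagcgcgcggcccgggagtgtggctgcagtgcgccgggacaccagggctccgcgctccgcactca
A further sequence is the central 300 bases of the LAMA2 peak in intron 1 (chr6:128945818-128946117, plus strand), the peak with the largest gain among the members. None of the 4 motifs matched it.
LAMA2 intron 1 peak: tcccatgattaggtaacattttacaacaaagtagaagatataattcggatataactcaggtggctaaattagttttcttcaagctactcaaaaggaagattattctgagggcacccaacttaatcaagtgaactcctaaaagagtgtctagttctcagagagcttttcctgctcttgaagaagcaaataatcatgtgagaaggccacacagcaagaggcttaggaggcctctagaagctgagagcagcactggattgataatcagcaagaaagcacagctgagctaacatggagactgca

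RefSeq windows were found for 52 promoters of member genes. A GC box occurred in 31 of these and in 45.0% of all 35116 windows, a CTCF core in 9 and in 10.6%, a TATA box in 8 and in 11.5%, and an AP-1 site in 3 and in 7.71%. In the central 300 bases of the 85 member H3K27ac peaks, AP-1 matches occurred in 7, of which 3 were in lost peaks and 0 in gained peaks, and in 9.28% of all peaks. These matches are descriptions of letters and not of bound sites.

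Most collagen and laminin promoters held no H3K27ac peak. One was present at 13 of the 54 genes (24.1%), against 12629 of the 18765 autosomal genes with a protein-coding start site (67.3%). A further 20 genes had peaks in the body alone, and 21 had none. Those without any H3K27ac peak included COL1A1 and COL1A2, the chains of type I collagen, COL6A2 and COL6A3 of the beaded filaments, and LAMA3, an alpha chain of epithelial laminins. A CTCF promoter peak was present at 27 genes (50.0%), close to the 48.5% of all genes, and 48 genes had at least 1 CTCF peak. For 17 genes CTCF was the only mark found, and COL2A1, COL7A1, COL10A1 and COL6A5 had neither.

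The cells carried the acetylation of a beta-cell line. All 13 beta-cell markers had an H3K27ac promoter peak, from a mean count of 43.6 at MAFA to 16247 at PAX6. Of 8 fibroblast and stellate-cell markers, PDGFRA, PDGFRB, THY1, DCN, LUM and FAP had none. RGS5 had a peak that was lost (mean count 783, log2 fold change -0.61) and ACTA2 one that was gained (19.2 counts, 1.30). None of 6 endothelial markers had a peak, whereas the duct marker KRT19 had one that was lost (-0.74) and the leukocyte-associated CD68 one that was not called (0.20). What part the moves of RGS5, ACTA2 and KRT19 have in the matrix gene results was not tested.

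The plot of all member peaks by gene gives each H3K27ac change with its SE. Of the 33 genes with a peak, 11 had losses without gains, 3 had gains without losses (COL4A3, COL9A1 and COL28A1), 4 had both (COL18A1, COL22A1, COL23A1 and LAMA2) and 15 had neither. The lost peaks were of moderate strength, with mean counts of 14.2 to 424 and a median of 115. The gained peaks ran from 22.5 to 560 with a median of 97.7, and the uncalled ones from 18.6 to 3994 with a median of 133.

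**Figure D2:**
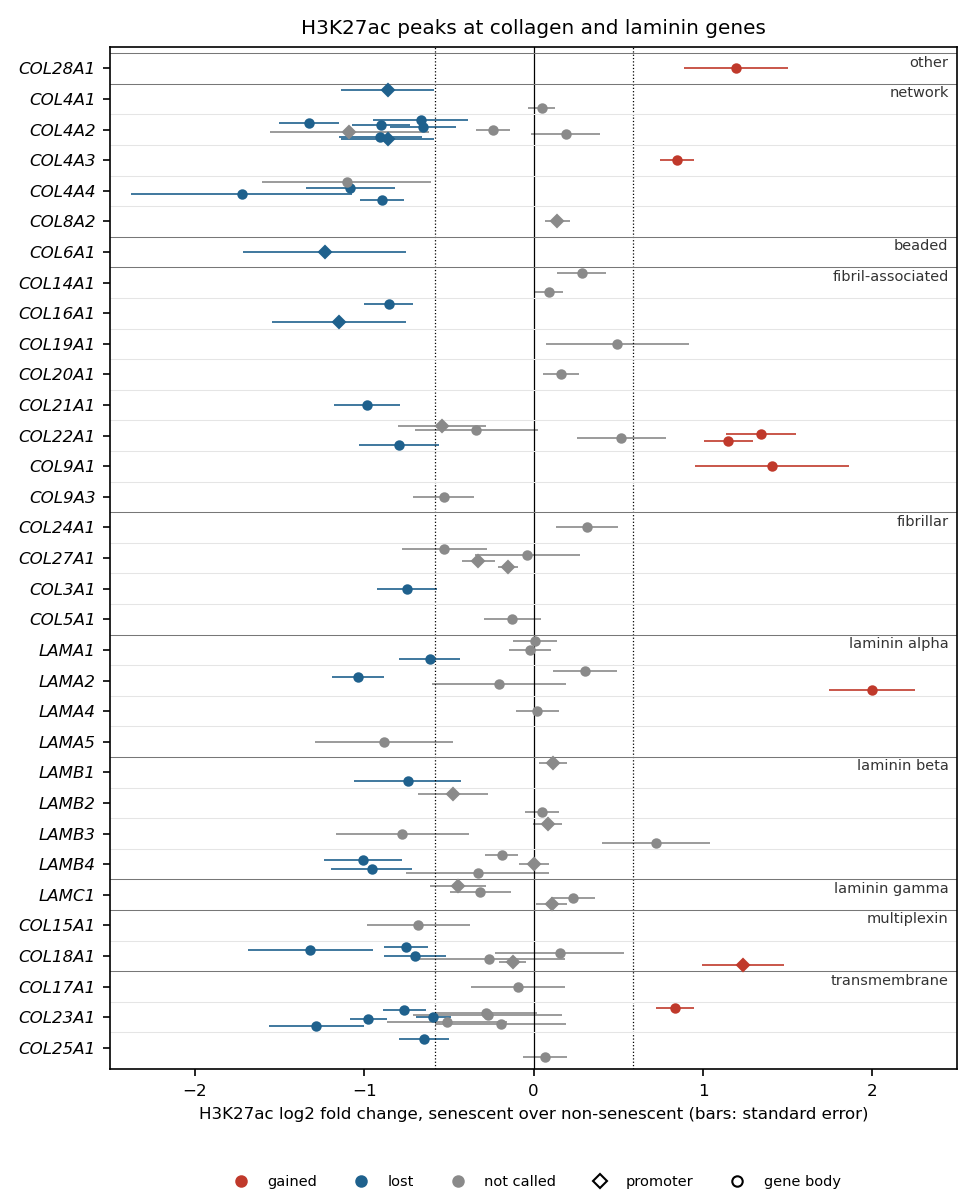
Each point is an H3K27ac peak at a collagen or laminin gene, placed by its log2 fold change (senescent over non-senescent, bars are SE) and grouped by class of chain. Diamonds are promoter peaks, circles body peaks, and dotted lines mark the 1.5-fold limits. There are 28 lost (blue) and 8 gained (red) peaks, and the lost peak shared by COL4A1 and COL4A2 is drawn in both rows.

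Type IV and other network-forming collagens showed the most losses. Of their 16 peaks 9 were lost and 1 was gained, with a median log2 fold change of -0.88. COL4A2, which codes for the second chain of the common α1α1α2 basement membrane collagen, had 9 peaks, of which 6 were lost. The most reduced of these was in intron 40 (chr13:110499123-110501147), with a mean count of 137 and a log2 fold change of -1.33 (SE 0.18, DESeq2 adjusted p = 1.2e-12). The peak over exons 38 to 39 (chr13:110491554-110493637, 138 counts) fell by 0.90 (SE 0.17, adjusted p = 1.4e-06). Both lay in enhancers that the authors listed for non-senescent cells and not for senescent cells. The strongest COL4A2 peak, over exon 16 with 515 counts, changed less and was not called (-0.24, SE 0.10).

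COL4A1, the partner chain, is read from the opposite strand of the same start region. The peak nearest to both starts (chr13:110308274-110309713) does not cover either of them and lies in intron 3 of COL4A2. It had 54.4 counts and was lost, with a log2 fold change of -0.86 (SE 0.27, DESeq2 adjusted p = 0.0061). In contrast, the body peak over exons 13 to 17 of COL4A1, with 958 counts, stood at 0.05 (SE 0.08). The strong peak inside COL4A1 was thus not among the lost ones. Without COL4A1 and COL4A2, 22 of 75 member peaks were lost (29.3%) and 8 gained.

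COL4A3 and COL4A4 code for chains of the α3α4α5 network and also form a divergent pair, with main start sites 419 bp apart and no promoter peak in either gene. Their body peaks went in opposite directions. The COL4A3 peak over exons 22 to 23 (chr2:227265704-227268654) had 560 counts, the most of any gained member peak, and rose by a log2 fold change of 0.85 (SE 0.10, DESeq2 adjusted p = 9e-16). It lay in an enhancer listed in both states. In COL4A4, 3 of 4 peaks were lost, led by one in intron 37 (chr2:227037502-227039633, 280 counts) at -0.90 (SE 0.13, adjusted p = 1.4e-10). The peaks in introns 35 and 12 were weaker, at 14.2 and 64.4 counts, and stood at -1.72 (SE 0.65, adjusted p = 0.024) and -1.08 (SE 0.26, adjusted p = 0.00019). COL8A2, a short-chain network collagen, had a broad peak of 2250 counts that was not called (0.14, SE 0.07). It counts as a promoter peak through an internal start over exons 3 to 4, and its centre lies 31.0 kb from the main start. The peak also lies within 2 kb of starts of ADPRS and TEKT2.

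COL18A1, the source of endostatin and a basement membrane proteoglycan, changed in both directions. Its upstream promoter peak (chr21:45404595-45405860), which holds the GC-box-rich sequence shown above, covers exons 1 to 2. It had 78.0 counts and rose by a log2 fold change of 1.24 (SE 0.24, DESeq2 adjusted p = 2.3e-06). The stronger promoter peak at the later start had 1296 counts and stood at -0.12 (SE 0.08). Downstream of it, 3 body peaks were lost, at -0.70, -1.32 and -0.75, the last of them over exon 3 with 281 counts (SE 0.13, adjusted p = 1.1e-07). COL15A1, the other multiplexin, had 1 body peak of 58.1 counts at -0.68 that was not called (SE 0.31, adjusted p = 0.065).

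**Figure D3:**
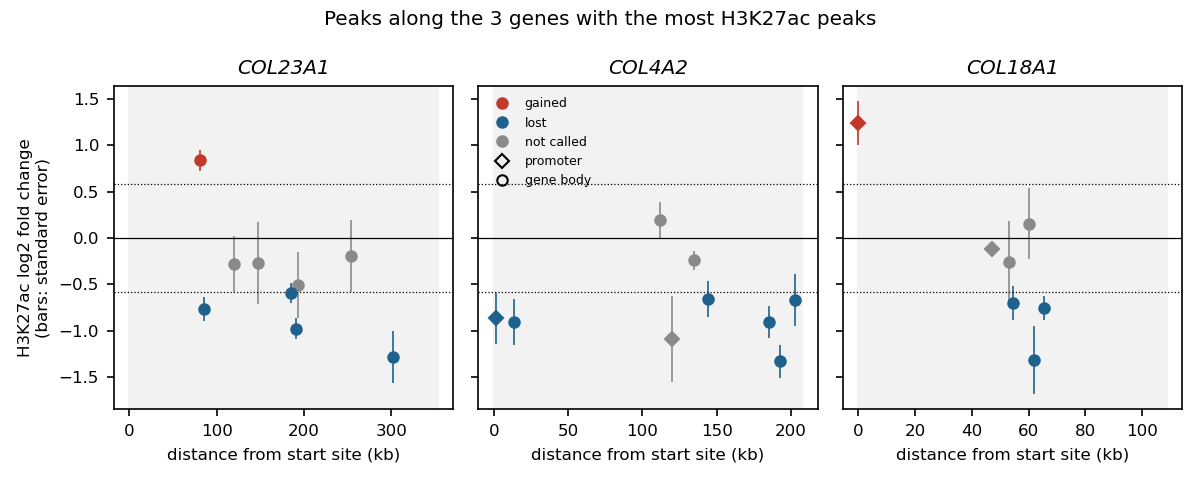
H3K27ac log2 fold change (bars are SE) of each peak is plotted against its distance in kb from the main start site, for the 3 member genes with the most peaks, with a stretch as long as the gene shaded from that start. COL4A2 has 6 lost peaks along its length, COL23A1 has 4 lost and 1 gained, and in COL18A1 the gained promoter peak at the start is followed by 3 lost body peaks.

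COL23A1, a transmembrane collagen, also had 9 peaks, of which 4 were lost and 1 was gained, and none at its promoter. The lost peak in intron 2 at chr5:178397962-178400807 had 396 counts and the smallest adjusted p among the members (log2 fold change -0.98, SE 0.11, DESeq2 adjusted p = 1.3e-17). A further lost peak of the same intron (chr5:178503604-178505904, 271 counts) stood at -0.76 (SE 0.13, adjusted p = 2e-08). Less than 3 kb from it, the peak at chr5:178508378-178511244 with 336 counts rose by 0.83 (SE 0.11, adjusted p = 5.2e-12). This gained peak lay in an enhancer listed for non-senescent cells alone. Neighbouring peaks of a single intron thus moved in opposite directions by more than their errors. COL25A1, a brain-enriched transmembrane collagen, had 1 lost peak over exon 9 (196 counts, -0.65) and 1 that was not called (0.07). Among the 12 peaks of the transmembrane class 5 were lost and 1 gained, with a median of -0.39.

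Fibril-associated collagens, which sit on the surface of fibrils, divided between losses and gains, with 4 lost and 3 gained of 15 peaks and a median of 0.09. COL22A1 had gains in exon 49 (245 counts, log2 fold change 1.15, SE 0.14, DESeq2 adjusted p = 4e-14) and in intron 30 (112 counts, 1.34, SE 0.21, adjusted p = 1.4e-09). Both lay in enhancers listed for senescent cells alone. A COL22A1 peak in intron 51 was lost (71.6 counts, -0.79, SE 0.24, adjusted p = 0.0033), and the promoter peak was not called (-0.54). COL9A1 gained in exon 29 at a low count of 22.5 (1.41, SE 0.45, adjusted p = 0.0069).

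The remaining losses of this class were in COL16A1 and COL21A1. COL16A1 had a lost peak over exons 49 to 50 (210 counts, -0.85, SE 0.15, DESeq2 adjusted p = 4.7e-08) and one 398 bp from an internal start in intron 52 (26.6 counts, -1.15, SE 0.40, adjusted p = 0.012). No peak was found at its main start. The COL21A1 peak, with 156 counts, stood at -0.98 (SE 0.19, adjusted p = 3.5e-06). It lies about 104 kb upstream of the main start site, inside the longest annotated extent of the gene.

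Fibrillar collagens held few peaks in these cells, and 1 of their 7 was lost. This was the COL3A1 peak over exons 46 to 48 (165 counts, -0.75, SE 0.18, DESeq2 adjusted p = 0.00016), in an enhancer listed for non-senescent cells alone. COL27A1 had the strongest member peak of all, a promoter peak of 3994 counts at -0.15 (SE 0.06). COL6A1 of the beaded filaments had a single weak promoter peak, 246 bp from its start, which was lost (18.2 counts, -1.23, SE 0.48, adjusted p = 0.029). COL28A1 had a single body peak, in intron 27, which was gained (54.5 counts, 1.19, SE 0.31, adjusted p = 0.00053).

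Laminin alpha genes, whose chains carry the receptor-binding domains, had 9 peaks, of which 2 were lost and 1 was gained. LAMA2, the alpha chain of muscle and nerve basement membranes, held the largest gain and a strong loss. The intron 1 peak (chr6:128945278-128946657, 83.4 counts), whose centre is printed above, rose 4.00-fold (log2 fold change 2.00, SE 0.26, DESeq2 adjusted p = 1.3e-13). The intron 12 peak (chr6:129243319-129245702, 182 counts) stood at -1.04 (SE 0.15, adjusted p = 2.6e-10). The former lay in an enhancer listed for senescent cells alone and the latter in one listed for non-senescent cells alone. LAMA1 lost 1 of 3 peaks (152 counts, -0.61, SE 0.18, adjusted p = 0.0025). LAMA4 stood at 0.02 (SE 0.13) and LAMA5 at -0.88, the latter with 27.1 counts and no call (SE 0.40, adjusted p = 0.069).

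The beta and gamma genes, whose chains complete the laminin trimer, had no called promoter peak. Promoter peaks stood at 0.12 in LAMB1 (847 counts), 0.08 in LAMB3 (815 counts), 0.00 in LAMB4 (698 counts) and 0.11 in LAMC1 (882 counts), with SEs from 0.08 to 0.09. That of LAMB4 lies at an internal start over exons 22 to 23, 66.5 kb from the main start, in an enhancer listed in both states. A second LAMC1 promoter peak, beside an internal start in intron 1 (171 counts), was lower (-0.45, SE 0.17, DESeq2 adjusted p = 0.021) but below the fold limit. The LAMB2 promoter peak was weaker, at 93.8 counts and -0.47 (SE 0.21). Body peaks were lost in LAMB1 (39.7 counts, -0.74, SE 0.32, DESeq2 adjusted p = 0.049) and in LAMB4, where those over exons 15 and 30 stood at -1.01 and -0.96 (adjusted p = 7e-05 and 0.00035). None of the 4 LAMC1 peaks was called.

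The authors' lists of enhancers were made with the same H3K27ac data and so are not independent of these changes. Of the 85 member peaks 21 overlapped an enhancer listed in both states, 17 one listed in non-senescent cells alone and 4 one listed in senescent cells alone. Among the 16 body peaks in enhancers of non-senescent cells alone, 11 were lost and 1 was gained. Over all genes 43.8% and 1.61% of such body peaks were. Of the 4 body peaks in enhancers of senescent cells alone 3 were gained and 1 was lost, against 47.1% and 1.41%. Of the 19 in enhancers of both states 5 were lost, against 10.7%, and 1 was gained, against 11.8%. Of the 30 body peaks in no listed enhancer 8 were lost (26.7%), against 7.39% over all genes, and 2 were gained, against 8.90%. The member genes held 38 of 14886 non-senescent enhancers, in 20 genes, and 25 of 13076 senescent ones, in 18 genes. Of 2435 regions that the authors listed as bound by Rb, the retinoblastoma protein, in senescent cells, 1 lay in a member, in intron 41 of COL11A1, and none overlapped a member peak.

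CTCF peaks of the collagen and laminin genes were called about as often as those of other genes. CTCF calls needed a DESeq2 adjusted p under 0.2 and a 1.5-fold difference. By this rule 6 of the 163 member peaks were lost and 1 was gained, against 3.28% and 2.29% of all CTCF peaks (5.58% in either direction). No adjusted p was present for 33 of the 163, which stayed uncalled. At promoters 3 of 35 peaks were lost (4.46% of all promoter peaks) and none was gained by the DESeq2 test (0.491%, and 4.95% in either direction). At an unadjusted p under 0.05, 10 were lower and 0 higher, but the share of all promoter peaks at this limit was not counted. In gene bodies 3 of 128 were lost (2.42%) and 1 gained (2.41%, and 4.83% in either direction). The median log2 fold change of the promoter peaks was -0.26, with 30 of 35 below zero. That of all promoter CTCF peaks was -0.17, with 7594 of 10789 below zero.

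The peak with the smallest adjusted p was in intron 8 of COL5A3, a fibrillar chain that had no H3K27ac peak (chr19:9999900-10000747). It had 72.4 counts and a log2 fold change of -1.17 (SE 0.24, DESeq2 adjusted p = 0.0007). Other body losses were in intron 16 of COL19A1 (26.6 counts, -1.18, SE 0.40, adjusted p = 0.068) and exon 23 of COL27A1 (19.6 counts, -1.21, SE 0.51, adjusted p = 0.17). The gain was over exon 5 of LAMB4 (65.6 counts, 0.61, SE 0.27, adjusted p = 0.20). The promoter losses, each over the first exon, were in COL21A1 (57.2 counts, -0.87, SE 0.29, adjusted p = 0.061), LAMC3 (40.2 counts, -0.82, SE 0.33, adjusted p = 0.13) and LAMA3 (34.3 counts, -0.78, SE 0.35, adjusted p = 0.19).

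CTCF cores were found in 4 of the 7 called peaks, all of them lost, and are printed with flanks on the strand of the match to show what the peaks that lost CTCF contain. Capitals mark the fixed letters of the core.
COL21A1 promoter (chr6:56247573-56247602, minus strand): cgggctccgCCtccAGggGGCtgagagcga
LAMA3 promoter (chr18:23689413-23689442, minus strand): agccgcgcgCCagcAGacGGCgtctctccc
COL19A1 intron 16 (chr6:70103980-70104009, plus strand): cctgcaccaCCactAGagGGCctcaaccca
COL27A1 exon 23 (chr9:114243344-114243373, minus strand): accctgagtCCaccAGgtGGCcagctgtcc
The other 3 called peaks, of COL5A3, LAMC3 and LAMB4, held no match to these letters. The core occurred in 72 of the 163 member CTCF peaks and in 38.3% of all CTCF peaks. By the limits used here 1690 of all CTCF peaks were lost and 1180 gained. Both numbers are larger than those the paper reports at the same limits for sites that contain the CTCF motif. The peaks used here thus seem not to have been limited to such sites.

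Over all CTCF peaks, GC-richer ones had lower fold changes, as the plot of CTCF change against GC content shows. When the median change at each GC content was subtracted, COL5A3 (-1.13) and COL19A1 (-1.32) kept their call. The other calls were lost, with corrected log2 fold changes of -0.71 at COL21A1, -0.52 at LAMC3, -0.48 at LAMA3, -1.03 at COL27A1 and 0.53 at LAMB4, each of the same sign as before. All 28 lost and 8 gained member H3K27ac peaks kept their call under a correction of the same kind. Some strong CTCF peaks in the members stood near zero, such as those of COL4A3 (720 counts, 0.10), COL27A1 at its promoter (499 counts, -0.13) and COL1A1 at its promoter (443 counts, -0.22). Others moved further but stayed below the fold limit. The COL14A1 promoter peak (451 counts) stood at -0.35 (SE 0.12, DESeq2 adjusted p = 0.083). A peak in intron 4 of COL4A4 (404 counts) stood at 0.44 (SE 0.14, adjusted p = 0.045). In COL4A4, where H3K27ac was lost, all 4 CTCF peaks were above zero. They had 36.1 to 595 counts and log2 fold changes of 0.23 to 0.82, and none was called.

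**Figure D4:**
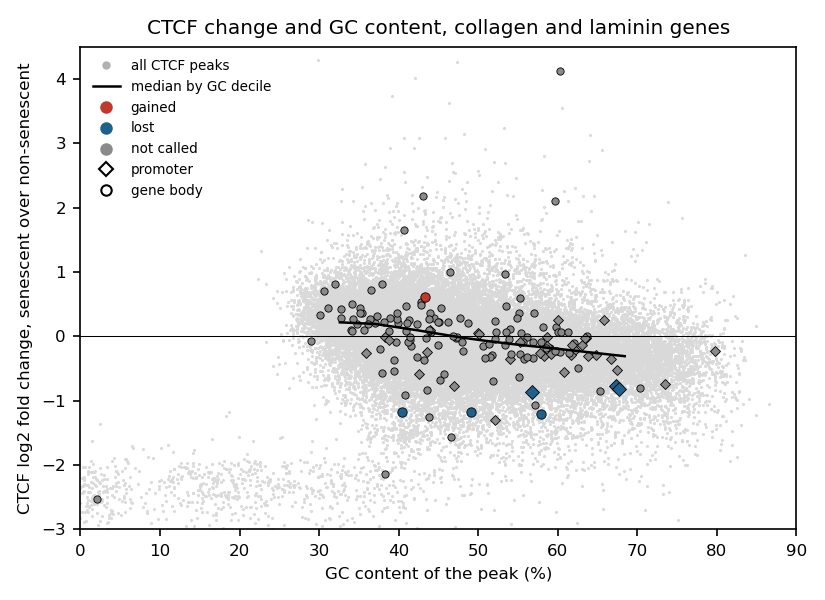
CTCF log2 fold change (senescent over non-senescent) is plotted against the GC content of the peak in percent, for all CTCF peaks (grey dots) and those of the collagen and laminin genes (outlined, diamonds for promoters and circles for bodies). The line joins the medians of deciles of GC content and slopes downward, and the 3 lost promoter peaks of the members lie at 56.7% GC and above. Peaks of the whole table beyond the axis limits are not drawn.

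Some large CTCF changes rested on very uneven or few counts. An AT-rich peak in intron 17 of COL21A1, with 2.04% GC, stood at -2.53 with an SE of 2.06, and one in intron 1 of LAMA2 at -2.14 with an SE of 1.46. The highest value, 4.12 in COL11A2, came from a mean count of 2.26 and had no adjusted p. Of the 163 member CTCF peaks 19 lay in H3K27ac peaks and none of these was called, where 3.91% of such CTCF peaks over the whole table were. At an unadjusted p under 0.05, 15 CTCF member peaks were higher and 16 lower, without a count over all CTCF peaks to set beside them. A CTCF peak was present in 4 of the 28 lost H3K27ac peaks, 1 of the 8 gained and 14 of the 49 uncalled.

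Genes that assemble, modify, bind or degrade these matrix proteins were read from 4 lists of 77 genes, at the strongest H3K27ac promoter peak of each. A peak was present for 43, of which 12 were lost and 2 gained (11 distinct lost peaks, since FKBP10 and P3H4 share one), and over all genes 9.01% of such peaks were lost and 3.18% gained. Their median log2 fold change was 0.03, against 0.04 over all genes. Among enzymes of collagen synthesis and cross-linking 6 of 22 were lost and 1 gained, among basement membrane partners 2 of 5 and 1, among receptors 3 of 12 and none, and among proteases and their inhibitors 1 of 4 and none. P4HA2, a prolyl hydroxylase subunit that stabilizes the collagen helix, was lost at a strong peak (887 counts, -0.77, SE 0.09, DESeq2 adjusted p = 3.2e-15). NID1, which links laminin to type IV collagen, was lost (89.9 counts, -1.57, SE 0.22, adjusted p = 4.3e-11), as was DDR2, a collagen receptor kinase (379 counts, -0.65, SE 0.12, adjusted p = 2.6e-07). The gains were at P3H2, a prolyl 3-hydroxylase (121 counts, 0.87, SE 0.18, adjusted p = 1.4e-05), and AGRN, a basement membrane proteoglycan (145 counts, 0.69, SE 0.18, adjusted p = 0.00039). CTCF promoter peaks were present for 44 of the 77 genes, of which 2 were lost and 0 gained. The losses were at NID1 (28.2 counts, DESeq2 adjusted p = 0.15) and LAIR1 (25.8 counts, adjusted p = 0.0073). Over all genes 4.65% of the strongest CTCF promoter peaks were lost and 0.494% gained. The CTCF losses of these genes were thus about as frequent as those of all genes.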

How the data were processed

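Per the study's methods, the authors aligned reads to hg38 with Bowtie2, called peaks over input (HOMER for H3K27ac, MACS2 for CTCF), and compared raw read counts in peaks with DESeq2. Tool versions, and how replicates were combined into peaks, were not given in the sources used here. The deposited mean signal is the mean of read counts divided by size factors over the libraries, and the deposited log2 fold change and SE are on the log2 scale. The deposited Wald score is their ratio, and the deposited p-value and adjusted p-value are the authors'. The deposited region lists gave coordinates. These columns were used as they stand because the tables hold no counts per library, so the depth of each library is unknown. The mean signals summed to 19239499 (H3K27ac) and 6136424 (CTCF).

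Peaks were assigned to genes with GENCODE 44 (overlap of at least 1 bp, windows of 2 kb) and called on the whole table. CTCF changes can carry a trend with GC content, which was removed in 20 bins as an alternative. Scripts were tested on simulated data (Python 3.11.15, pandas 2.3.3, scipy 1.17.1, pysam 0.24.0). Named peaks were those of members with a called strongest promoter peak. Up to 10 gained and 10 lost body peaks with the smallest adjusted p were added (at most 2 a gene and direction). Only 7 body peaks were gained, and all were named. Also named were called CTCF peaks, common basement membrane and fibrillar chains, the 3 genes with the most peaks, and the called companion promoters with the smallest adjusted p. The other peaks printed were chosen after their values were seen. Members and lists were chosen with earlier results of these data known. H3K4me1, Rb and input libraries entered no test.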

Additional observations from a re-analysis of the deposited data

How the results depend on the processing

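Of 68 recalculated counts for 6 results, 49 were within 1.5 times the reported count, among them all those with a 1 kb window, a minimum overlap share of 0.5 of the peak and without COL4A1 and COL4A2 (chosen after the data were seen). The H3K27ac losses numbered 28 as reported, 9 with a fold change above 2, against 5.8% of all peaks, and 2 when tested against a fold change of 1.5, against 2.76%. That last test left 2 of 85 member peaks lost, no larger a share than over all peaks, and 3 of 8 gains (1.89% of all). The promoter losses were 3 of 16, against 9.85% of promoter peaks of all genes and 13.1% of all H3K27ac peaks. They became 1 of 16 at an adjusted p under 0.01 (10.7% of all). They became 1 of 13 at a mean count of at least 50 (14.8%) and 6 of 16 with no fold limit (20.3%). With the start sites of all transcripts, which label more peaks as promoter peaks, they became 7 of 25 (13.1%). The percentages beside these alternatives are of all H3K27ac peaks, since shares of promoter peaks alone were not counted at the alternative limits. Against 1.5-fold, the promoter losses and the promoter gain (1) both became 0 by the Wald test against that limit, with 0 lower and 1 higher at its unadjusted p under 0.05. The CTCF losses (6 of 163, against 3.28% of all CTCF peaks) became 2 of 163 with the GC trend removed (1.72% of all). They became 2 of 94 at a mean count of at least 50 (3.13%) and 1 of 163 at an adjusted p under 0.05 (1.19%). Above 2-fold they became 3 (1.36%), and against 1.5-fold 0 (0.0233%). The CTCF gain (1, against 2.29% of all) became 0 with the GC trend removed (0.843%) and at an adjusted p under 0.05 (0.904%). It also became 0 above 2-fold (0.356%) and against 1.5-fold (0%), and 6 with no fold limit (5.19%). Tighter limits call fewer peaks by their construction. For CTCF, the Wald test against 1.5-fold gave 1 higher and 1 lower at an unadjusted p under 0.05, and the deposited test against no change 15 and 16. Shares over all peaks were not counted at these unadjusted limits.

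No paired analysis was possible because the tables hold no values per library, and for the same reason leaving out a library and another normalization were not run. A change at a weak peak, such as those of COL6A1 or COL9A1, has an SE near 0.5 on the log2 scale.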
